A study of Mus musculus with 27 samples.

Results

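Liver RNA was compared 24 h after 70% partial hepatectomy (PHx) between mice given etomoxir and mice given none. The comparison took 11 of the 27 libraries of the series: 4 labelled PHx24hETO and 7 labelled PHx24h, chosen by their labels. All were wild-type C57/BL6J mice, and the sources used here do not give age, sex or any vehicle. Etomoxir was injected into the peritoneum once, at 12.5 mg/kg, 4 h before the resection. The other groups were 5 sham-operated livers, 7 livers at 48 h after resection and 4 livers at 48 h with etomoxir, which received a second injection at 24 h. Livers are called here by their labelled number, as etomoxir livers 1 to 4 and resection-only livers 1 to 7. Whether the livers are separate animals is not labelled, so the p-values speak only of the spread among these libraries.

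Etomoxir inhibits carnitine palmitoyltransferase 1 (CPT1), the enzyme of the outer mitochondrial membrane that commits long-chain fatty acids to oxidation in the mitochondrion; the liver form is encoded by Cpt1a. After partial hepatectomy, the hepatocytes that remain leave quiescence, copy their DNA and divide, while the liver fills with fat for a time. Fatty acids that are not burned can act as ligands of PPARA, the nuclear receptor that turns on the genes of fatty acid oxidation.

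Each library held 14903757 to 18446372 counted reads. Hepatocyte markers were abundant in all 11 livers, with 13 marker genes summing to 33008 to 42834 FPKM (counts that the authors scaled for gene length and library size) without etomoxir and 36948 to 43295 with it. Some resection-only livers stood apart in marker RNA of other tissues. Skeletal muscle markers summed to 1922 FPKM in resection-only liver 1 and to at most 0.995 in every other liver of 24 h, and 7 of their 12 genes, Acta1 among them, were at 0 in all 4 etomoxir livers. Exocrine pancreas markers reached 38.4 FPKM in resection-only liver 3, and neutrophil markers reached 87 FPKM in resection-only liver 2. Adipocyte markers summed to 77 FPKM in resection-only liver 1, 27.9 in resection-only liver 2 and at most 21.7 in every other liver of 24 h. Plin1, Cidea and Lipe are both adipocyte markers and members of the lipid droplet list below. Among the 12 Kupffer cell markers, the summed level was 142 to 265 FPKM without etomoxir and 81.8 to 143 with it, and the 11 erythroid markers in the table summed to 222 to 468 against 104 to 194, with none of either list at 0. Gut epithelium markers (11 genes) summed to 64.1 to 122 FPKM without etomoxir and 123 to 148 with it, so that all 4 etomoxir livers lay above all 7 others; Fabp2, the intestinal fatty acid-binding protein, gave most of either sum, Cdx2 and Sis were at 0 in both groups, and none of the 3 tested genes was called (2 higher at an unadjusted p under 0.05; 1 called by DESeq2). In bulk tissue, fewer cells of a type and less RNA per cell cannot be told apart. The part of these cell types in the results below was not tested.

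Of 54532 genes in the table, 12376 reached 1 FPKM in 4 or more libraries and were tested. With etomoxir 359 genes changed at an adjusted p under 0.05 (2.9% of those tested; edgeR quasi-likelihood test, Benjamini-Hochberg adjustment, all 27 libraries in 1 fit). Of these 195 rose (1.58%) and 164 fell (1.33%), and 51 of the rises and 85 of the falls were at least 2-fold. The median log2 fold change of all tested genes was 0.0062. In this fit 2401 of the 12376 tested genes were at an unadjusted p under 0.05, both directions together. Counts in the gene lists below are to be read beside that number and beside the shares called of 2.9%, 1.58% and 1.33%. A list with 0 or 1 call is not read as changed. In 401 genes (3.24% of those tested) the 4 etomoxir livers all lay above or all lay below the 7 others, and 164 of the 359 changed genes were among them. The calls that follow come with these limits. Fitted on the 11 livers of 24 h alone, edgeR called 0 genes, with a lowest adjusted p of 0.0522 and 2058 genes at an unadjusted p under 0.05. All 359 genes kept their direction and an unadjusted p under 0.05 there. They were chosen from a fit that holds the same 11 livers, so this is no independent check. On those 11 livers DESeq2 called 541 genes, and limma on log2(FPKM + 1) called 25. With library totals as the only scaling, 105 genes rose and 166 fell, so the share of rises among the calls went from 54.3% to 38.7%.

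**Figure D1:**
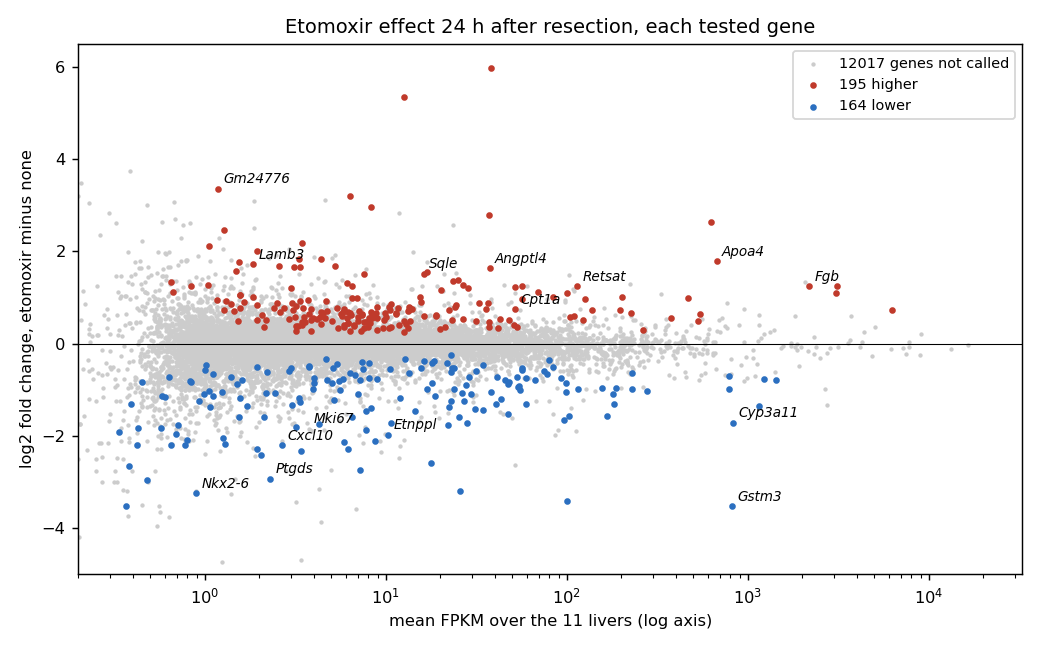
Log2 fold change with etomoxir (vertical axis) against mean FPKM over the 11 livers of 24 h (log axis), 1 point per tested gene, with 195 rises in red, 164 falls in blue and genes not called in grey. Gstm3 and Cyp3a11 were low and Apoa4 and Fgb high among the most abundant changed genes; 30 genes, 0 of them called, lay below the axis at -5 and 40 genes, 0 of them called, lay left of it.

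The 4 etomoxir livers did not form an even group. Across tested genes, log2 levels of livers 3 and 4 correlated at r = 0.987, liver 1 with these at 0.973 and 0.974, and liver 2 with the other 3 at 0.926 to 0.936. These r values run over genes, which are not independent replicates. Liver 2 differed at least 2-fold from the mean of the other 3 in 1179 genes (9.53% of those tested), liver 1 in 495, liver 3 in 233 and liver 4 in 235, while each resection-only liver differed so from its group in 137 to 392 genes. The SD of log2 levels had a median of 0.224 over genes with etomoxir and 0.175 without, and 0.136 with etomoxir once liver 2 was left out. Etomoxir liver 1 stood nearest to the livers without etomoxir: of the 195 genes that rose, it lay above all 7 of them in 103, against 181, 175 and 169 for livers 2, 3 and 4. For the 164 that fell, it lay below all 7 in 93, against 156, 152 and 145.

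Leaving out 1 liver moved the number of calls in both directions. Without etomoxir liver 1 there were 1199 calls, which held 354 of the 359 genes. Without etomoxir liver 2 there were 138, without liver 3 there were 141 and without liver 4 there were 245. Leaving out a resection-only liver gave 167 calls (liver 4) to 510 (liver 2), with 181 without liver 3. In all 11 of these fits 52 of the 359 genes stayed called, and 50 of them (19 rises and 31 falls) stayed called in each other setting of 27 libraries that fitted them. Where a call is given below as lost without several livers, each of them was left out alone.

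**Figure D2:**
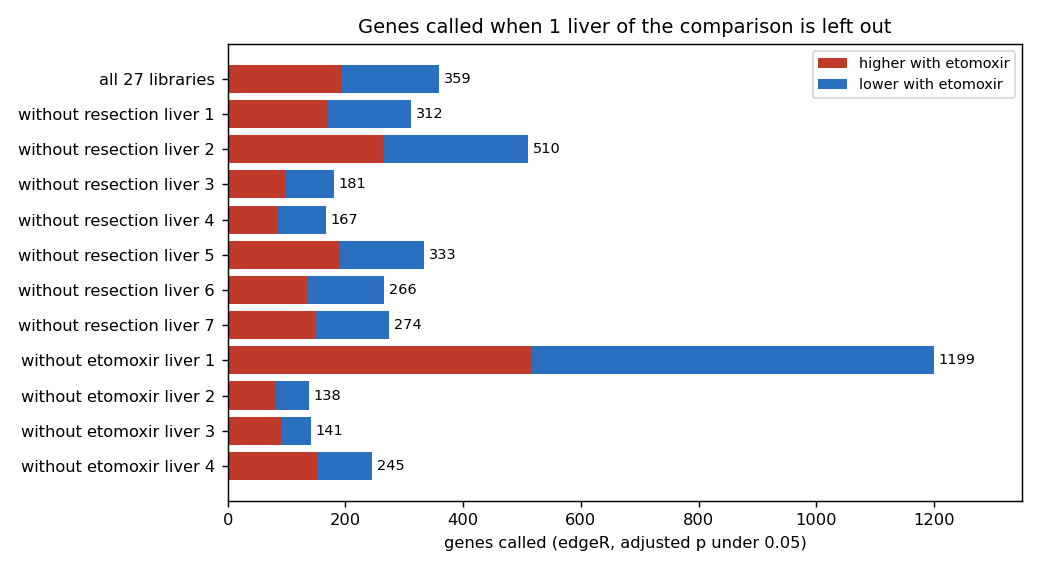
Number of genes called with etomoxir against none at 24 h (edgeR, adjusted p under 0.05) with all 27 libraries and with each of the 11 livers of the comparison left out in turn; red bars are rises and blue bars falls. The bar without etomoxir liver 1 reached 1199 genes, and those without etomoxir livers 2 and 3 reached 138 and 141.

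In the mu class of glutathione S-transferases, enzymes that couple toxins to glutathione, Gstm1, Gstm2, Gstm3 and Gstm6 fell. Gstm3, a member at chr3:107963696-107969283 (GRCm38), stood between 564 and 2053 (median 872) FPKM without etomoxir and at 147, 192, 33 and 53.6 in etomoxir livers 1 to 4. All 4 lay below all 7, with liver 4 inside the sham range of 38.8 to 108 FPKM and liver 3 under it, and the fall was 11.5-fold (log2 fold change -3.53 ± 0.55, adjusted p = 0.00165). Gstm2 fell as well, from between 159 and 364 (median 204) to 99.9, 74.3, 53.9 and 70.05 FPKM (log2 fold change -1.58 ± 0.25, adjusted p = 0.00165). For Gstm1 the values were between 1061 and 2516 (median 1298) FPKM without etomoxir and 839, 774, 320.0 and 412 with it (log2 fold change -1.36 ± 0.27, adjusted p = 0.00788). The groups did not overlap in either gene. Gstm6 fell by 1.19 ± 0.20 on the log2 scale (adjusted p = 0.00282). The mu-class genes are near-identical in sequence and can share reads with each other and with 2 processed pseudogenes that also fell, Gm8834 (-3.20) and Gstm2-ps1 (-1.71), so the split of the fall between these genes is uncertain. In the list of NRF2 targets, genes of the antioxidant and conjugation response, 6 of 22 tested members fell and 0 rose (median -0.12): Gstm1, Gstm2, Gstm3, Ces1g, Gstp1 and Ephx1. Without etomoxir liver 3 that count was 3, and without liver 2 the median of the list was -0.70. The list split the etomoxir livers, with a mean log2(FPKM + 1) of 5.24, 5.90, 4.56 and 4.65 in livers 1 to 4 against 5.48 to 6.23 (median 5.55) without etomoxir, so that liver 2 lay inside the range of the resection-only livers and livers 1, 3 and 4 below it.

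The Cyp3a cytochromes Cyp3a11 and Cyp3a59 fell, and in both every etomoxir liver lay below every other liver of 24 h. The list of cytochromes P450 and conjugation below also held Cyp3a13, Cyp3a25 and Cyp3a41a, which gave no call. Cyp3a11, a main drug-metabolising cytochrome P450 of mouse liver at chr5:145854426-145879964, stood between 951 and 1433 (median 1016) FPKM without etomoxir and at 534, 373, 194 and 256 with it. The fall was 3.29-fold (log2 fold change -1.72 ± 0.23, adjusted p = 0.000523). Cyp3a59 followed at lower level, between 19.4 and 35 (median 30.2) against 13.3, 11.4, 10.2 and 9.63 FPKM (log2 fold change -1.38 ± 0.21, adjusted p = 0.00165); these 2 genes are close relatives and can take each other's reads. Ugt1a9, a glucuronosyltransferase, fell by 1.73 ± 0.36 on the log2 scale (adjusted p = 0.0106), but overlaps 5 other Ugt1a genes, with which it can share reads. Of 26 tested genes for cytochromes P450 and conjugation, 5 fell (Cyp3a11, Ugt2b1, Sult1c2, Cyp2f2 and Cyp2c70) and 2 rose, with a median of -0.51; without etomoxir liver 3 only Cyp3a11 stayed among the falls, a count of 1, and there were 2 falls without liver 2 and 8 without liver 1. The rises were Nr1i3, the nuclear receptor CAR, and Sult1e1, the oestrogen sulfotransferase. Nr1i3 stood between 7 and 10.1 (median 8.32) FPKM without etomoxir and at 10.3, 9.59, 16.7 and 14.4 with it (log2 fold change 0.58 ± 0.16, adjusted p = 0.0494), and was lost without resection-only livers 2, 3, 4, 6 and 7 and etomoxir livers 3 and 4. Sult1e1 stood between 0.0478 and 1.95 (median 0.488) FPKM without etomoxir and at 0.806, 128, 3.39 and 1.2 with it, and rose in the edgeR fit (log2 fold change 5.34 ± 1.0, adjusted p = 0.00635), but was not called without liver 2 (adjusted p = 0.546) or by limma at a pseudocount of 1 or 0.1 (0.0874 and 0.0824); DESeq2 gave it no adjusted p.

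Bile acid handling showed 2 falls among 16 tested genes and 0 rises. Abcb11, the bile salt export pump of the canalicular membrane at chr2:69238282-69342616, stood between 112 and 208 (median 121) FPKM without etomoxir and at 75.7, 57.9, 85.3 and 69.4 with it. The groups did not overlap (log2 fold change -0.98 ± 0.15, adjusted p = 0.00165), and the call held in all 11 fits with 1 liver left out. Akr1d1, a reductase of bile acid synthesis, fell too (between 36.7 and 50.6, median 50.4, against 35, 19.9, 21.6 and 15.3 FPKM; log2 fold change -1.04 ± 0.27, adjusted p = 0.0336), but was lost without resection-only livers 1, 3, 4 and 7 and etomoxir livers 2, 3 and 4, adjusted p 0.0506 to 0.113.

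**Figure D3:**
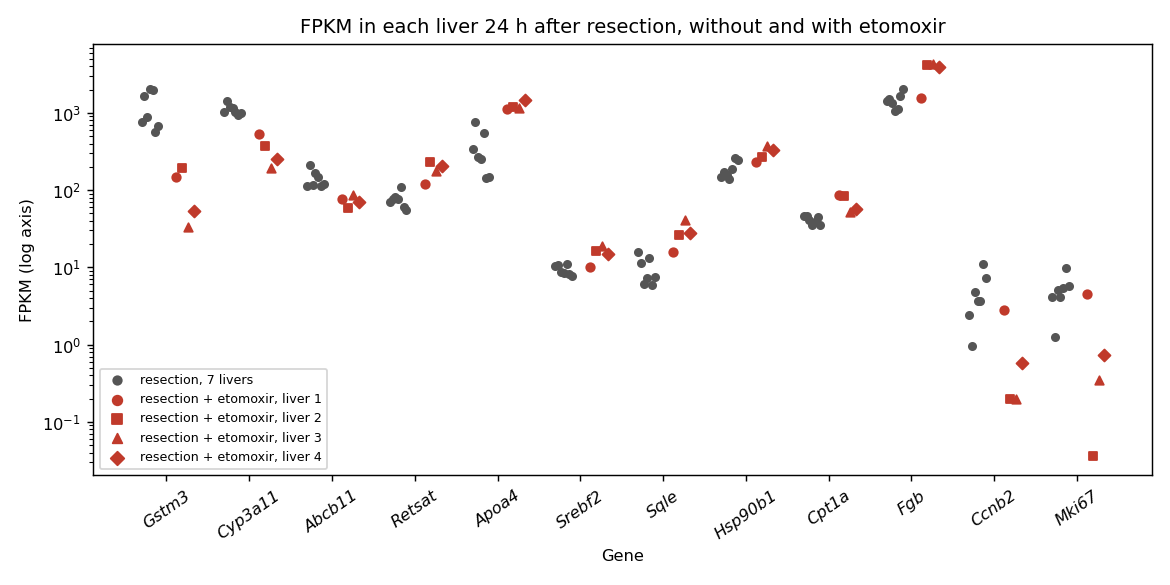
FPKM on a log axis of 12 genes in each liver of 24 h, with the 7 resection-only livers in grey and etomoxir livers 1 to 4 in red, each with its own symbol. Gstm3, Cyp3a11 and Abcb11 lay below and Retsat, Apoa4 and Cpt1a above all 7 others in all 4 livers, while Ccnb2 and Mki67 of liver 1 lay among the others.

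Genes of the fatty acid route into the mitochondrion rose in part. Cpt1a, which encodes the target enzyme in liver, stood between 35.1 and 46.3 (median 40.8) FPKM without etomoxir and at 86.9, 83.7, 51.3 and 56.7 with it, above all 7 in each liver (log2 fold change 0.75 ± 0.17, adjusted p = 0.0175). Slc25a20, the carnitine-acylcarnitine carrier of the inner membrane, rose from between 18 and 23.7 (median 19.8) to 27, 30.4, 29.9 and 28.4 FPKM (log2 fold change 0.51 ± 0.11, adjusted p = 0.0175). The carnitine importer Slc22a5 rose from between 6.96 and 12.2 (median 8.6) to 15.5, 21.9, 11 and 15.6 FPKM (log2 fold change 0.78 ± 0.17, adjusted p = 0.0155), with liver 3 inside the range of the others. Those were 3 of 17 tested genes of the carnitine shuttle and acyl-CoA synthetases, with 0 falls and a median of 0.15. Without etomoxir liver 2 the 3 calls were lost, at adjusted p of 0.0736, 0.0556 and 0.0892; Slc25a20 was lost without liver 3 as well (0.0556). Cpt2, the inner-membrane partner of Cpt1a, did not pass the test, between 66.3 and 94.5 (median 78.4) against 80.3, 98.6, 84.2 and 83.8 FPKM (log2 fold change 0.12 ± 0.12, adjusted p = 0.633). Cpt1b, the muscle form, was below the filter. In mitochondrial beta-oxidation 1 of 19 genes rose, the acyl-CoA dehydrogenase Acadl (between 92.7 and 125, median 98.1, against 137, 185, 147 and 141 FPKM; log2 fold change 0.52 ± 0.11, adjusted p = 0.0117), also lost without liver 2 (0.0605); without liver 1 there were 3 rises. Ketogenesis gave 0 calls among 7 genes (4 at an unadjusted p under 0.05; 1 rise by DESeq2).

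PPARA targets gave 3 rises among 28 tested genes and 0 falls, with a median of 0.63 and 12 genes higher at an unadjusted p under 0.05. Retsat, retinol saturase at chr6:72598475-72608425, stood between 54.5 and 111 (median 76) FPKM without etomoxir and at 118, 231, 174 and 203 with it. Every etomoxir liver lay above every other (log2 fold change 1.25 ± 0.19, adjusted p = 0.00165), and all 11 fits with 1 liver left out kept the call. Angptl4, a secreted inhibitor of lipoprotein lipase, rose from between 11.3 and 36.4 (median 20.04) to 58, 106, 46.3 and 54.9 FPKM (log2 fold change 1.63 ± 0.37, adjusted p = 0.0166). Pex11a, a factor of peroxisome division, rose from between 16.9 and 18.6 (median 17.1) to 24, 95.6, 25.2 and 26.4 FPKM (log2 fold change 1.28 ± 0.26, adjusted p = 0.00887), and liver 2 held the highest value by far. Its antisense RNA Gm44706 (1.67) rose too, but overlaps Pex11a, and reads of the pair cannot be told apart without strand. Without liver 2 Angptl4 and Pex11a were not called (adjusted p = 0.0874 and 0.0765), which left 1 call in the list. There were 8 rises without liver 1, 5 without liver 3 and 6 without resection-only livers 2 or 5. Ppara itself stood between 7.31 and 11.6 (median 8.84) against 14.8, 20.9, 13.3 and 14.2 FPKM, with no overlap and an adjusted p just outside the threshold (log2 fold change 0.79 ± 0.23, adjusted p = 0.0541).

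Of the other PPARA targets, Plin2, Pdk4 and Fgf21 split the etomoxir livers. Plin2, the main coat protein of lipid droplets, stood between 103 and 208 (median 123) FPKM without etomoxir and at 169, 919, 167 and 187 with it (log2 fold change 1.29 ± 0.36, adjusted p = 0.052). Liver 2 stood far above all 10 other livers. Pdk4, a kinase that shuts pyruvate out of oxidation, stood between 3.43 and 17.4 (median 8.74) against 4.39, 71.7, 6.67 and 4.36 FPKM (log2 fold change 1.18 ± 0.84, adjusted p = 0.456), and livers 1, 3 and 4 of the etomoxir group lay inside the range without etomoxir. Fgf21, a fasting hormone of liver, stood between 0 and 6.02 (median 0.122) against 8.05, 29.6, 2.95 and 1.78 FPKM (log2 fold change 3.12 ± 0.97, adjusted p = 0.0746). For the fatty acid hydroxylase Cyp4a10 the values were between 73.8 and 299.9 (median 164) FPKM without etomoxir and 201, 323, 230.0 and 277 with it (log2 fold change 0.58 ± 0.49, adjusted p = 0.544). Its relative Cyp4a14, with which it can share reads, stood between 70.6 and 545 (median 180.3) against 344, 593, 485 and 581 FPKM (log2 fold change 1.08 ± 0.62, adjusted p = 0.333). Both overlapped between groups. In the lipid droplet list 1 of 18 genes rose, Plin4, between 1.42 and 6.51 (median 1.65) against 2.34, 64.2, 5.45 and 2.45 FPKM (log2 fold change 2.95 ± 0.74, adjusted p = 0.03). It was lost without resection-only livers 3, 4, 6 and 7 and etomoxir liver 2, adjusted p 0.0538 to 0.775, and limma did not call it at either pseudocount; without liver 1 the list had 4 rises.

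Cholesterol synthesis and uptake was the list with the most rises: 9 of 24 tested genes rose, where 1.58% of all tested genes did, and 0 fell. The median was 0.93, and 19 were higher at an unadjusted p under 0.05. Srebf2, the transcription factor that drives this pathway, stood between 7.75 and 11.2 (median 8.81) FPKM without etomoxir and at 10.04, 16.1, 18.8 and 14.9 with it. Livers 2, 3 and 4 lay above all 7 others and liver 1 among them (log2 fold change 0.66 ± 0.13, adjusted p = 0.00741). Sqle, squalene epoxidase, rose from between 5.96 and 15.8 (median 7.56) to 15.8, 26.2, 41.1 and 28.1 FPKM (log2 fold change 1.51 ± 0.35, adjusted p = 0.0189). Fdps, Fdft1, Hsd17b7, Lss and Msmo1 were among the other rises, with log2 fold changes of 1.78, 1.21, 1.01, 1.33 and 1.38. Liver 3 was highest in Srebf2 and Sqle: without it only Srebf2 stayed called, 1 gene, and Sqle had an adjusted p of 0.0834. Without liver 1 there were 17 rises, and without resection-only livers 3, 4, 6 or 7, or etomoxir liver 2, there were 4 in each case; without etomoxir liver 4 there were 5. The sterol element, searched as TCACNCCAC on both strands, was held by 1 of the 16 promoter windows found for the list (300 bases each, from RefSeq GRCm38.p6), by 0 of the 4 called genes among these and by 1.24% of all windows, which says only that these letters are not in the other windows. The list's mean log2(FPKM + 1) was 4.20, 4.73, 5.44 and 4.83 in etomoxir livers 1 to 4, 3.79 to 4.44 (median 3.93) without etomoxir and 4.14 to 4.81 in sham livers.

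Fatty acid and triglyceride synthesis gave 1 rise and 1 fall among 23 genes. Lpin2, a phosphatidate phosphatase, rose from between 8.6 and 13.8 (median 9.12) to 25.2, 65.1, 12.4 and 14.4 FPKM (log2 fold change 1.55 ± 0.33, adjusted p = 0.014), which was lost without liver 2 (0.171). Srebf1, which drives fatty acid synthesis, fell (between 12.3 and 72.7, median 48.6, against 23.3, 11.9, 18.5 and 13 FPKM; log2 fold change -1.44 ± 0.34, adjusted p = 0.0208), but was lost without etomoxir livers 2, 3 and 4, adjusted p 0.0537 to 0.0777. Lipoprotein genes gave 4 rises and 1 fall among 20. Apoa4, an apolipoprotein of triglyceride-rich particles, stood between 144 and 763 (median 267) FPKM without etomoxir, 18.5 to 126 in sham livers and 1115, 1183, 1169 and 1465 with etomoxir. All 4 etomoxir values lay within a narrow band above all 7 others (log2 fold change 1.79 ± 0.45, adjusted p = 0.0305). The call was lost without resection-only livers 3, 4, 6 and 7 and etomoxir livers 2, 3 and 4, adjusted p 0.054 to 0.0711. Apoa1, the main protein of HDL, rose from between 4204 and 6152 (median 5028) to 6209.6, 10357, 9035 and 8105 FPKM (log2 fold change 0.73 ± 0.17, adjusted p = 0.0175), and was lost without etomoxir livers 2 and 3, adjusted p 0.059 to 0.0733. The other rises were Angptl4 and Apoa5, and without liver 2 the list had 0 rises, without liver 3 it had 1, and without liver 4 or resection-only livers 3, 4, 6 or 7 it had 2. Lipc, hepatic lipase, fell from between 39.9 and 53.8 (median 50.7) to 42.7, 27.2, 25.6 and 22.3 FPKM (log2 fold change -0.72 ± 0.14, adjusted p = 0.00879), a call kept in all 11 fits with 1 liver left out.

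Chaperones of the endoplasmic reticulum rose in part. Of 18 genes of the unfolded protein response, which the cell turns on when proteins misfold in that compartment, 5 rose and 0 fell, the median was 0.50, and 13 were higher at an unadjusted p under 0.05. The 5 were Hsp90b1 (GRP94), Calr (calreticulin), Creld2, Pdia4 and Herpud1. Upstream sequence is shown for the 3 of them whose promoter window held the ER stress element, the site through which ATF6 and XBP1 act: CCAAT, 9 bases of any kind, then CCACG, searched on both strands. Windows of 300 bases from RefSeq (GRCm38.p6; 250 before the gene start and 50 after) were found for 16 of the 18 genes, and 7 of these held the element, as did 0.119% of all 32851 windows. Capitals mark CCAAT and CCACG, or ATTGG and CGTGG where the element lies on the other strand. Each line gives the 250 bases before the start, at chr10:86705445-86705694 (minus strand) for Hsp90b1, chr8:84846932-84847181 (minus strand) for Calr and chr15:88819396-88819645 (plus strand) for Creld2:
Hsp90b1: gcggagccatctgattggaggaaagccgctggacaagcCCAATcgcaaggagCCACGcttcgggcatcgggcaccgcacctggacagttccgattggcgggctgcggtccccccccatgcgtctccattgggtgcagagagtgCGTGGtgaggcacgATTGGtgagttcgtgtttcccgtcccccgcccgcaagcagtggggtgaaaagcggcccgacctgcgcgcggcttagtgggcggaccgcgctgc
Calr: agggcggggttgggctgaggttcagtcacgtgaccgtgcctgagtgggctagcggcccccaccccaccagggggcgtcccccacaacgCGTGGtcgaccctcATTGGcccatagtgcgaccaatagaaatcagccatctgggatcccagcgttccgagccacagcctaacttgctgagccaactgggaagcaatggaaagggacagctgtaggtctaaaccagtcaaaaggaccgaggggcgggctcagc
Creld2: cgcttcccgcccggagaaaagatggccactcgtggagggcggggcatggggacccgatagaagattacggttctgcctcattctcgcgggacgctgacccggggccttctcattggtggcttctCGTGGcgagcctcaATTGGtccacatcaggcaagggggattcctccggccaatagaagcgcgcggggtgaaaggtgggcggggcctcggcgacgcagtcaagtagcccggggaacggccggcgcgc

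Hsp90b1 held the element at 2 places, starting 212 and 107 bases before the gene start, Calr at 1, 162 bases before, and Creld2 at 1, 126 bases before. A match of letters is a description and not a measured site. Hsp90b1, a chaperone, stood between 139 and 259.6 (median 169) FPKM without etomoxir and at 228, 270.2, 371 and 326 with it (log2 fold change 0.66 ± 0.15, adjusted p = 0.0185). Livers 2, 3 and 4 lay above all 7 others and liver 1 among them, and the call was lost without etomoxir livers 3 and 4, adjusted p 0.0522 to 0.0898. Creld2 rose from between 47.3 and 99.6 (median 65.1) to 96.9, 90.1, 229 and 194 FPKM (log2 fold change 1.11 ± 0.27, adjusted p = 0.0265). Calr, a chaperone that binds calcium, rose from between 400.1 and 523 (median 473) to 569, 464, 800.1 and 807 FPKM (log2 fold change 0.50 ± 0.12, adjusted p = 0.0264), with liver 2 inside the range without etomoxir. Creld2 and Calr were each lost without resection-only livers 3 and 4 and etomoxir livers 3 and 4. Pdia4, a protein disulfide isomerase, rose from between 81.8 and 144 (median 104) to 147, 132, 244 and 226 FPKM (log2 fold change 0.74 ± 0.15, adjusted p = 0.0117), and was lost without etomoxir liver 3, adjusted p = 0.0679. Herpud1, which serves the degradation of misfolded proteins, rose from between 37 and 106 (median 56.7) to 145, 121, 129 and 97.4 FPKM (log2 fold change 1.0 ± 0.25, adjusted p = 0.0263), and was lost without resection-only livers 3 and 4 and etomoxir livers 2 and 3, adjusted p 0.0531 to 0.0686. Without etomoxir liver 3, 0 of the 18 were called, and without liver 4 the count was 2, as it was without resection-only livers 3 or 4. Without liver 1 it was 10. The mean log2(FPKM + 1) of the list was 6.81, 6.62, 7.38 and 7.27 in etomoxir livers 1 to 4, 6.24 to 6.87 (median 6.47) without etomoxir and 5.59 to 6.35 in sham livers. Atf4, a transcription factor of the same stress network, rose (between 41.4 and 48.6, median 45.2, against 46, 67.8, 74.2 and 55.6 FPKM; log2 fold change 0.41 ± 0.10, adjusted p = 0.03) as the 1 call among 20 tested genes of its target list, and was lost without resection-only livers 3, 4 and 6 and etomoxir livers 2 and 3, adjusted p 0.0521 to 0.147. Without liver 1 the target list had 6 rises.

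Genes of cell division separated etomoxir liver 1 from the other 3. All 33 tested mitosis genes had a negative log2 fold change with a median of -1.69; 32 were lower at an unadjusted p under 0.05, and 7 fell, where 1.33% of all tested genes did: Knstrn, Ccnb2, Kif23, Cdc25c, Ube2c, Cenpe and Aurka. The mean log2(FPKM + 1) of the list was 1.79, 0.20, 0.45 and 0.60 in etomoxir livers 1 to 4, 0.84 to 2.45 (median 1.74) without etomoxir and 0.35 to 0.65 in sham livers. Livers 2, 3 and 4 thus lay below all 7 resection-only livers, with livers 3 and 4 inside the sham range and liver 2 under it. Liver 1 lay among the resection-only livers. Left out in turn, liver 1 took the count from 7 to 33 of 33 (median -3.51), and livers 2, 3 and 4 each took it to 0; resection-only liver 2 took it to 19, livers 3, 6 and 7 to 2 and liver 4 to 3. Ccnb2, cyclin B2, stood between 0.966 and 11.1 (median 3.71) FPKM without etomoxir and at 2.81, 0.199, 0.199 and 0.575 with it (log2 fold change -2.33 ± 0.56, adjusted p = 0.0232). Ube2c, which serves the destruction of cyclin B, stood between 2.12 and 14 (median 7.13) against 5.64, 0.211, 0.634 and 0.911 FPKM (log2 fold change -2.13 ± 0.57, adjusted p = 0.0386). Both had liver 1 inside the range of the others and livers 2, 3 and 4 under it. Mki67, the proliferation marker Ki-67, stood between 1.27 and 9.7 (median 5.15) against 4.54, 0.0364, 0.346 and 0.726 FPKM and did not pass (log2 fold change -1.85 ± 0.62, adjusted p = 0.095), but passed without liver 1 (-3.82, adjusted p = 0.000129).

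Mitosis genes are known to share promoter elements, the CCAAT box and the cell cycle homology region (CHR, TTTGAA), bound by NF-Y and the DREAM and MuvB complexes. Windows were found for 27 of the 33 genes, and on either strand 21 of these held CCAAT (37.4% of all windows did) and 20 held TTTGAA (17.9% of all windows). Among the 6 called genes with a window, 5 held CCAAT and 4 held TTTGAA. The 250 bases before the start of 2 of these, Ccnb2 (chr9:70421555-70421804, minus strand) and Ube2c (chr2:164769679-164769928, plus strand), are shown with both motifs in capitals (ATTGG and TTCAAA where they lie on the other strand):
Ccnb2: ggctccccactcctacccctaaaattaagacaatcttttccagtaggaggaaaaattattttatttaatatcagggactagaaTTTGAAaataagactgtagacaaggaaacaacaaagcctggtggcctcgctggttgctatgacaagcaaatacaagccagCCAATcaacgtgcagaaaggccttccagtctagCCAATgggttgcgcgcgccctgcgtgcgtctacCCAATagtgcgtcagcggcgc
Ube2c: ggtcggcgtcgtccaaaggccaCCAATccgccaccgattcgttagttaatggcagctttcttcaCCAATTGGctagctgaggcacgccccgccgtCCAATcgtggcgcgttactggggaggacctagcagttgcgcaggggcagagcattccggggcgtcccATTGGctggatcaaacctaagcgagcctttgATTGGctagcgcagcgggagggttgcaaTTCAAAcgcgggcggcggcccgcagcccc

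Ccnb2 held CCAAT starting 87, 54 and 21 bases before its start and TTTGAA 167 bases before it, with another TTTGAA past the start outside the stretch shown. Ube2c held 6 CCAAT matches, of which a pair overlap, and 1 TTTGAA on the other strand, 29 bases before the start.

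DNA replication genes, which act earlier in the cycle, had 0 calls. Of 37 tested genes 35 had a negative log2 fold change (median -0.48), 10 were lower at an unadjusted p under 0.05, and none passed the edgeR test, while DESeq2 called 2 and limma on log2(FPKM + 1) called 4. The mean log2(FPKM + 1) was 3.37, 1.37, 2.10 and 2.28 in etomoxir livers 1 to 4, 2.03 to 3.28 (median 2.93) without etomoxir and 1.34 to 1.44 in sham livers. Liver 1 was above every resection-only liver, liver 2 was inside the sham range, and livers 3 and 4 were at the low end of the resection-only livers. Without liver 1, 22 of the 37 fell. Mcm5, a subunit of the replicative helicase, stood between 6.37 and 29.5 (median 20.6) FPKM without etomoxir, 0.592 to 1.38 in sham livers and 32.8, 1.79, 8.89 and 10.9 with etomoxir (log2 fold change -0.60 ± 0.43, adjusted p = 0.457), and fell without liver 1 (-1.54, adjusted p = 0.0155). G1/S regulators gave 0 calls among 17 (3 lower at an unadjusted p under 0.05; 6 falls without liver 1). Cyclin D1, Ccnd1, which opens G1, stood between 26.4 and 51.6 (median 43.1) FPKM without etomoxir, 2.18 to 8.29 in sham livers and 27.4, 34.1, 25 and 29.8 with etomoxir (log2 fold change -0.52 ± 0.33, adjusted p = 0.387), so all 4 etomoxir livers were above the sham range.

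In the list of p53 targets and inhibitors of cyclin-dependent kinases, 1 of 18 tested genes fell, Cdkn2c. The median was 0.0077, with 10 genes above 0 and 8 below, and the list is not read as changed. Cdkn2d, an inhibitor outside that list, fell too. Cdkn2d, a kinase inhibitor of the INK4 family, fell from between 3.5 and 9.54 (median 5.51) to 2.77, 0.426, 1.47 and 2.19 FPKM with no overlap (log2 fold change -1.75 ± 0.36, adjusted p = 0.0106), a call kept in all 11 fits with 1 liver left out. Its relative Cdkn2c fell from between 3.15 and 17.6 (median 11.5) to 8.86, 1.11, 3 and 3.45 FPKM (log2 fold change -1.39 ± 0.37, adjusted p = 0.0389), and was lost without resection-only livers 3, 4, 6 and 7 and etomoxir livers 2, 3 and 4, adjusted p 0.0658 to 0.124. Cdkn1a (p21), between 12.5 and 29.7 (median 18) against 12, 42.7, 9.34 and 11.4 FPKM, was high in liver 2 alone (log2 fold change 0.01 ± 0.31, adjusted p = 0.987).

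Kupffer cell markers gave 1 fall among 12 tested genes, so by the rule above the list is not read as changed. In it 12 of 12 had a negative log2 fold change, and 10 were lower at an unadjusted p under 0.05. Cd5l, a protein that Kupffer cells secrete, fell from between 35.2 and 64.8 (median 56.8) to 31.7, 8.87, 20.4 and 23.4 FPKM (log2 fold change -1.30 ± 0.32, adjusted p = 0.0271). That call was lost without resection-only liver 3 and etomoxir livers 2, 3 and 4. Without liver 1 there were 6 falls, and DESeq2 called 9. Log2 fold changes were also negative in 11 of 12 sinusoidal endothelial, 7 of 9 erythroid, 6 of 7 cholangiocyte and 5 of 5 monocyte markers. They were negative in 9 of 13 stellate cell and 6 of 13 hepatocyte markers. The summed level of the Kupffer cell markers in etomoxir livers 2, 3 and 4 was lower than in every liver without etomoxir, and its part in the results on cell division was not tested.

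**Figure D4:**
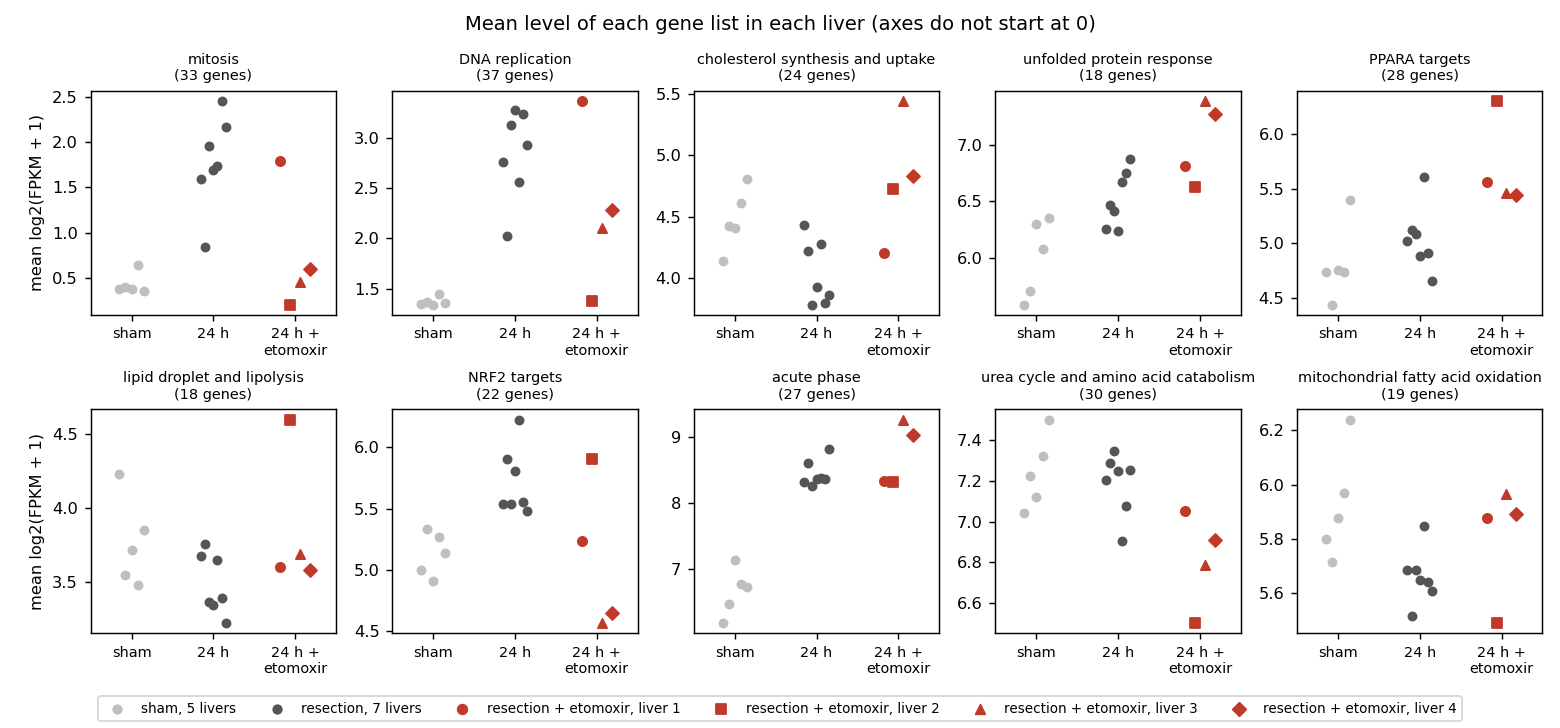
Mean log2(FPKM + 1) of 10 gene lists (vertical axes, which do not start at 0) in sham livers (light grey), resection-only livers of 24 h (dark grey) and etomoxir livers 1 to 4 (red symbols). In mitosis liver 1 lay at 1.79 among the resection-only livers and livers 2, 3 and 4 at 0.20 to 0.60, while in PPARA targets and lipid droplet genes liver 2 stood apart at 6.30 and 4.60.

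The acute phase list, plasma proteins that liver makes in inflammation, had 4 rises and 0 falls among 27 tested genes (median 0.35). Fgb, the fibrinogen beta chain, stood between 1056 and 2006 (median 1438) FPKM without etomoxir and at 1544, 4177, 4339 and 3890.3 with it (log2 fold change 1.25 ± 0.22, adjusted p = 0.00362). Livers 2, 3 and 4 stood above all 7 others and liver 1 inside their range. The alpha chain gene Fga rose from between 1529 and 2861 (median 2147) to 2065, 5981, 6086 and 5704 FPKM (log2 fold change 1.24 ± 0.23, adjusted p = 0.00623). The gamma chain gene Fgg rose from between 1629 and 3058 (median 2014) to 2229.6, 4572, 6297 and 5668 FPKM (log2 fold change 1.10 ± 0.21, adjusted p = 0.00788). Liver 1 was again inside the range of the others in both. Serpina3m, a serine protease inhibitor in a cluster of close relatives that can share reads, rose from between 263 and 389.6 (median 363) to 336, 848, 777 and 783 FPKM (log2 fold change 1.0 ± 0.17, adjusted p = 0.00353). All 4 calls held in the 11 fits with 1 liver left out, and there were 8 without liver 1. Lcn2, lipocalin 2, stood between 560.3 and 968 (median 619.5) against 651, 745, 1102 and 1065 FPKM and did not pass (log2 fold change 0.35 ± 0.32, adjusted p = 0.579).

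Amino acid catabolism went down in part, with 6 falls and 2 rises among 30 tested genes and a median of -0.42. Ass1, argininosuccinate synthase of the urea cycle, stood between 612 and 1162 (median 1086) FPKM without etomoxir and at 661, 490.4, 373 and 440.2 with it (log2 fold change -0.98 ± 0.21, adjusted p = 0.0117); it was lost without liver 3 (0.0533), where the list had 0 falls. Gls2, liver glutaminase, fell from between 44.3 and 78.8 (median 67.6) to 54, 20.1, 27.6 and 38.6 FPKM (log2 fold change -0.93 ± 0.21, adjusted p = 0.0166), and was lost without etomoxir livers 2 and 3, adjusted p 0.0644 to 0.0672. Cth, Hgd, Hal and Gnmt were the other falls, with log2 fold changes of -1.08, -0.98, -0.78 and -0.70. The rises were Gpt2, mitochondrial alanine aminotransferase (between 36.3 and 59.7, median 48.8, against 67, 199, 77.5 and 79.7 FPKM with no overlap; log2 fold change 1.12 ± 0.20, adjusted p = 0.0043), and Sdsl, a relative of serine dehydratase (0.74; lost without resection-only livers 1, 3, 4, 6 and 7 and etomoxir livers 2, 3 and 4). Without liver 1 there were 13 falls, without liver 2 and without resection-only livers 3 or 4 there were 2, and without liver 4 there were 3. Etnppl, ethanolamine-phosphate phospho-lyase, a gene of periportal hepatocytes, stood between 11.4 and 19.2 (median 12.4) FPKM without etomoxir and at 6.83, 1.33, 2.87 and 3.51 with it (log2 fold change -1.97 ± 0.37, adjusted p = 0.00648). It was 1 of 5 falls, beside the rise of Sdsl, among 14 periportal genes (median -0.22), and of these 5 falls 1 was left without etomoxir liver 3 and 2 without liver 2; Ass1, Gls2, Hal and Sdsl are in the amino acid list as well. The 14 pericentral genes gave 0 calls in edgeR and 1 fall in DESeq2 (3 lower at an unadjusted p under 0.05; median -0.28). The difference between the 2 lists was not tested.

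Several genes of low abundance separated the groups without overlap. Ptgds, a prostaglandin D synthase, stood between 0.958 and 5.3 (median 3.62) FPKM without etomoxir and at 0.678, 0.259, 0.481 and 0.328 with it (log2 fold change -2.93 ± 0.50, adjusted p = 0.00353). Nkx2-6, a homeobox factor, stood between 0.35 and 2.83 (median 1.32) against 0.312, 0.0538, 0.108 and 0.0597 FPKM (log2 fold change -3.24 ± 0.56, adjusted p = 0.00362). Lamb3, a laminin chain, rose from between 0.539 and 1.59 (median 0.96) to 2.64, 2.51, 3.33 and 4.85 FPKM (log2 fold change 1.72 ± 0.23, adjusted p = 0.000523). The calls of Ptgds, Nkx2-6 and Lamb3 held in the 11 fits with 1 liver left out. Lamb3 overlaps Hsd11b1 and G0s2 in the genome and Nkx2-6 overlaps 1700092C10Rik, with which they can share reads, as can Abcb11 with Gm13613, Srebf1 with Rai1, Lipc with Gm25149 and Serpina3m with Serpina3k. Further overlaps among the named genes include Hsp90b1 with 1810014B01Rik and Gm15344, Plin4 with Hdgfl2, Gls2 with Spryd4, Akr1d1 with Gm7463 and Knstrn with Gm14091. Cxcl10, an interferon-induced chemokine, fell from between 1.53 and 15.1 (median 1.99) to 1.33, 0.488, 0.704 and 0.751 FPKM (log2 fold change -2.20 ± 0.61, adjusted p = 0.0465), but its highest value was in resection-only liver 2, the liver with neutrophil markers. It was lost without resection-only livers 2, 3 and 4 and etomoxir livers 2, 3 and 4, adjusted p 0.0532 to 0.142, and limma did not call it. Further rises by the same rule were Rab30 (1.27), Slc6a9 (1.21) and 1810055G02Rik (1.37), each highest in liver 2 and not called without it (adjusted p = 0.118, 0.324 and 0.0512). Gm24776 and Gm12195 rose (3.36 and 1.57) and Mup-ps13 and 9130409I23Rik fell (-1.88 and -1.81). Gm24776, a small nuclear RNA gene, stood between 0 and 0.704 (median 0) FPKM without etomoxir and at 2.05, 4.97, 0.7095 and 3.93 with it. Its groups were thus apart only by 0.704 against 0.7095 FPKM, values near the floor, so that separation carries no weight. Gm24776 overlaps Slain2 and Gm12195 overlaps Tbc1d9b, with which they can share reads. Gm24776, Gm12195 and Mup-ps13 were called in 4, 2 and 5 of the 11 fits, and 9130409I23Rik was lost without etomoxir liver 2.

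The effect at 24 h was set against that at 48 h, which shares no library with it. The etomoxir livers of 48 h had a second injection at 24 h, so time and number of injections cannot be told apart here. The difference between the effects was past the threshold for 2 genes of 12376 (0.0162%; edgeR interaction contrast, 1064 at an unadjusted p under 0.05). These were Cyp3a11, with a log2 fold change of -1.72 at 24 h and 0.17 at 48 h (difference 1.89 ± 0.31, adjusted p = 0.0121), and Cyp3a59, with -1.38 and 0.39 (difference 1.77 ± 0.28, adjusted p = 0.0116). Without etomoxir liver 4 of 24 h the number was 0, and without liver 1 it was 239. DESeq2 called 42. Of the 359 genes changed at 24 h, 272 (75.8%) had the same sign at 48 h, against 59.2% of all tested genes. Calls at both times numbered 6, of 359 at 24 h and 26 at 48 h: Retsat (1.23 at 48 h), Slc22a5 (0.91) and Slc25a20 (0.56) rose at both, and Ass1 (-1.16), its processed pseudogene Gm5424 (-1.09), which can share its reads, and Gnmt (-0.86) fell at both. The cholesterol list had a median of -0.12 at 48 h against 0.93 at 24 h, and the mitosis list -0.39 against -1.69; these differences between times were not tested as lists.

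The widest spread among the etomoxir livers was in genes that 1 liver held high or low. Mup10, a major urinary protein gene, stood at 2.03, 0.53, 1.05 and 406 FPKM in etomoxir livers 1 to 4 and between 0.723 and 2.63 (median 1.59) without etomoxir, and Mup8 at 89.1, 1.36, 12 and 1.99 against values between 2.17 and 5.41 (median 3.58). Mup genes are near copies of each other, so which of them the reads came from is uncertain. Mup10 rose (log2 fold change 5.97 ± 1.36, adjusted p = 0.0181), a call lost without liver 4, where the log2 fold change was -0.41 (adjusted p = 0.886), and with limma at a pseudocount of 1 or 0.1 (adjusted p = 0.518 and 0.552). Other Mup genes placed the livers in other orders, with 0.837, 0.457, 11.7 and 24.9 FPKM in livers 1 to 4 for Mup2, 49.4, 197, 19.2 and 167 for Mup16 and 4.52, 1.53, 2.16 and 40.7 for Mup21. Of the non-coding genes that spread most, the lincRNA gene Gm42047 stood at 102, 11.3, 1.22 and 9.57 FPKM and the short RNA gene Gm22121 at 8.72, 14.7, 1.13 and 11.3. Among etomoxir livers 1 to 4, liver 2 alone was high in Gsta1, a glutathione S-transferase (8.19, 73, 0.957 and 0.495 FPKM), Slc51b, a bile acid exporter subunit (1.16, 46.1, 1.12 and 0.668), and Cd14, an endotoxin co-receptor (4.34, 98.7, 1.86 and 3.53). It alone of these was low in Cyp8b1, which makes cholic acid (40.2, 0.657, 60.02 and 42.4), Selenbp2 (218, 3.82, 56.6 and 57.2) and Akr1c6 (593, 22.5, 446 and 419.7). In the mean level of the NRF2 list, which holds Gsta1, etomoxir liver 2 lay inside the range of the resection-only livers and the other etomoxir livers below it. In Slc51b and Cd14 the next highest liver of the comparison was resection-only liver 2, at 25.9 and 29.5 FPKM.

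Liver 1 differed from the other 3 in a further set. Mt1, a metallothionein that binds zinc, stood at 117, 2907, 1263 and 1085 FPKM in etomoxir livers 1 to 4 against values between 77.4 and 444 (median 150.2) without etomoxir, so that livers 2, 3 and 4 were above and liver 1 inside the range of the others (log2 fold change 2.64 ± 0.53, adjusted p = 0.00915; not called without liver 2). Inmt, a methyltransferase, stood at 91.2, 15, 6.67 and 5.96 FPKM against values between 12.5 and 242 (median 135) without etomoxir (log2 fold change -1.99 ± 0.68, adjusted p = 0.0997). Cyp2a5, a cytochrome P450, stood at 95.2, 48.4, 12 and 9.86 FPKM against values between 66.3 and 383 (median 105) without etomoxir (log2 fold change -1.90 ± 0.54, adjusted p = 0.0543). Liver 1 was highest of the 4 in both. Liver 3 held Cyp26a1, which breaks down retinoic acid, at the top of its group (9.03, 4.47, 63.9 and 9.66 FPKM), and liver 4 held Egr1, an immediate early factor, at the bottom (29.7, 34.1, 24 and 3.83 FPKM).

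**Figure D5:**
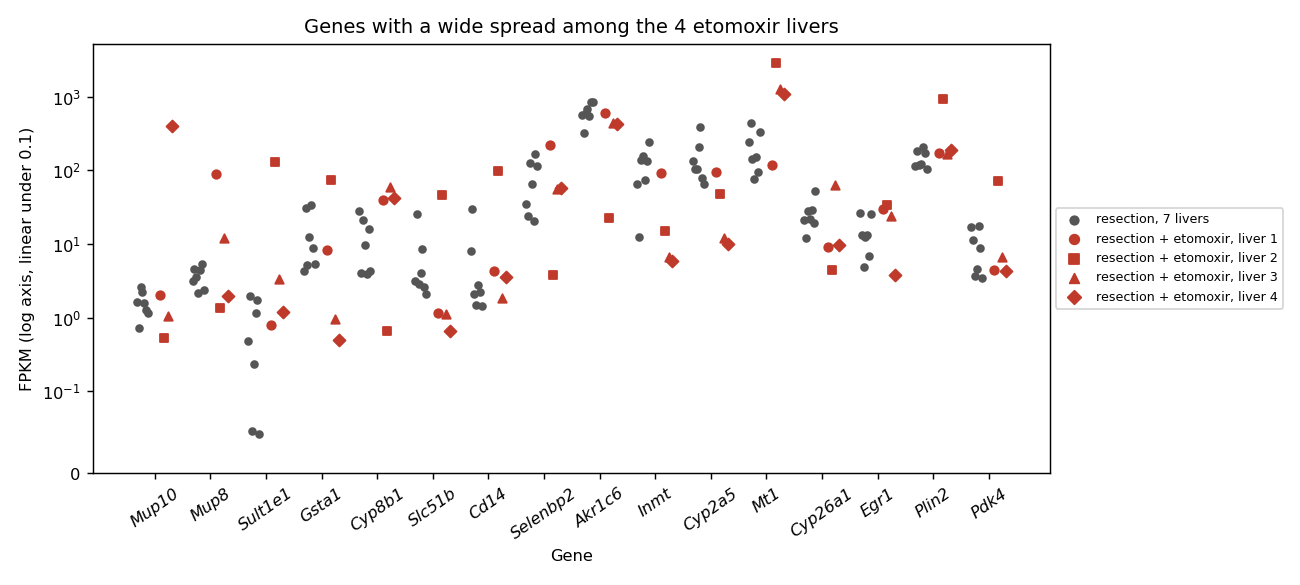
FPKM (log axis, linear under 0.1) of 16 genes that spread widely among etomoxir livers 1 to 4 (red symbols), beside the 7 resection-only livers (grey). Within the etomoxir group, liver 2 stood apart in Sult1e1, Gsta1, Cyp8b1, Cd14, Plin2 and Pdk4, and liver 4 in Mup10, at 406 FPKM.

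Beside 2.9% of all tested genes called, and 2401 of 12376 at an unadjusted p under 0.05, several lists gave 0 calls in edgeR. These were the tricarboxylic acid cycle (21 genes, 4 lower at an unadjusted p under 0.05), the nuclear-encoded respiratory chain (30 genes, 6 lower), mitochondrially encoded mRNAs (13 genes, 1 lower), glycolysis (18 genes, 2 higher and 1 lower), gluconeogenesis and glycogen (14 genes, 1 lower), ribosome biogenesis (22 genes, 6 higher), the circadian clock (15 genes, 3 higher and 2 lower) and immediate early genes (16 genes, 2 higher). DESeq2 called 2 falls in the tricarboxylic acid cycle, 1 fall in the respiratory chain and 1 rise each in glycolysis, ribosome biogenesis and the circadian clock, and without etomoxir liver 1 edgeR called 2 falls and 3 falls in the first 2 of these lists. In the respiratory chain list 29 of 30 log2 fold changes were negative with a median of -0.17. Albumin, Alb, stood between 12739.7 and 21028 (median 16136) FPKM without etomoxir and at 15544, 19157, 15254 and 14938 with it (log2 fold change -0.04 ± 0.24, adjusted p = 0.95), and did not pass the test.

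The remaining lists gave 1 or 2 calls each, where 2.9% of all tested genes were called, and are given as counts only. The stress factor Gdf15 stood between 8.13 and 27.2 (median 14.9) against 30.4, 73.2, 14 and 7.2 FPKM (log2 fold change 0.88 ± 0.39, adjusted p = 0.213). Peroxisomal enzymes (28 genes) had Pex11a alone, and the extracellular matrix list (19 genes, 3 lower at an unadjusted p under 0.05) had a rise of Fn1, fibronectin (log2 fold change 0.72 ± 0.18, adjusted p = 0.0273). The growth hormone and STAT5 targets (23 genes, 7 lower at an unadjusted p under 0.05) had a fall of Igf1, the growth factor that liver secretes under growth hormone (log2 fold change -0.52 ± 0.14, adjusted p = 0.0479). Interferon genes (22) held a rise of Iigp1 (log2 fold change 0.96 ± 0.20, adjusted p = 0.0117; lost without etomoxir liver 2, adjusted p = 0.0855) beside the fall of Cxcl10. The chemokine and cytokine genes (15) held a rise of the interleukin 6 receptor Il6ra (log2 fold change 0.77 ± 0.21, adjusted p = 0.0386) and a fall of Ccl9 (log2 fold change -0.62 ± 0.17, adjusted p = 0.0399), and p53 targets and CDK inhibitors (18) held Cdkn2c alone. Fn1 was lost without resection-only livers 3, 4, 6 and 7 and etomoxir livers 3 and 4, adjusted p 0.0514 to 0.116. Igf1 was lost without resection-only livers 1, 3, 4, 5, 6 and 7 and etomoxir livers 2, 3 and 4, adjusted p 0.0578 to 0.185, and also lost with median-of-ratios scaling; without etomoxir liver 1 its list had 6 falls and without resection-only liver 2 it had 3. Without etomoxir liver 1 the extracellular matrix list had 4 falls and the interferon list 3. Il6ra was lost without resection-only livers 3, 4, 5, 6 and 7 and etomoxir livers 2, 3 and 4, adjusted p 0.051 to 0.126. Ccl9 was lost without resection-only livers 4, 5, 6 and 7 and etomoxir livers 2, 3 and 4, adjusted p 0.0571 to 0.163. Among non-parenchymal markers, sinusoidal endothelial genes summed to 40.4 to 51.4 FPKM without etomoxir and 23.1 to 41.8 with it, with 0 of 12 called and 2 lower at an unadjusted p under 0.05.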

How the data were processed

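Per the labels' protocols, polyA RNA was extracted with TRIzol and libraries were made with the NEBNext Ultra kit, which does not mark strand. The submitters' processing notes name CASAVA 1.8, fastp, HISAT2 2.0.5, featureCounts 1.5.0-p3, DESeq2 1.20.0 and GRCm38/mm10; how each was used, the annotation release and the strand setting were not given in the sources used here. Whole-number read counts per gene and FPKM values were deposited by the authors. From the values, the deposited FPKM were counts divided by gene length and by a library size proportional to a median-of-ratios factor.

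Counts of all 27 libraries were fitted in 5 groups with edgeR 4.0.16 (R 4.3.3; quasi-likelihood F test, TMM factors), after keeping genes that reached 1 FPKM in 4 or more libraries, and p-values were adjusted by Benjamini-Hochberg over the 12376 genes tested (threshold 0.05). Errors of log2 fold changes are standard errors. The effect at 48 h minus that at 24 h was a contrast of the same fit. The fit was tested on simulated data. Alternatives used DESeq2 1.42.0, limma 3.58.1, other scalings and filters, a replicate block and each liver left out.

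The comparison, gene lists and rules were chosen with earlier results of these data known. Named genes were the 12 largest rises and falls without overlap between groups, up to 3 called members per list, genes with the widest spread over the etomoxir livers, genes whose effect differed between times and a set of markers; the rise or fall of other called list members and of genes named as a family was given after their values were seen. A few members of the lists, counted in their totals, are not reported by name here.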

Additional observations from a re-analysis of the deposited data

Results flagged for a closer look

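In 150 groups of values (a part of the named genes, and lists, per group of livers), 20 had 1 liver whose gap to the nearest other, divided by the group's range, passed Dixon's 95% critical value. Chance gives about 1 in 20 groups where values are normal and groups independent. Here lists share members and some genes were named for a large fold change, which 1 extreme liver can raise. The count of 20 therefore cannot be set against that share. Of the 20, 14 were etomoxir liver 2, and etomoxir livers 3 and 4 gave 0. These counts hold only for the groups looked at. Mup10, Cyp26a1, Plin4 and Sult1e1, in which 1 etomoxir liver stood far above the others, were not among them.

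Etomoxir liver 2 was set apart as the highest of 4 in Gm44706 (a gap of 0.898 of the range), 1810055G02Rik (0.935), Pex11a (0.966), Slc6a9 (0.977), Pdk4 (0.966), Plin2 (0.973), Cdkn1a (0.919) and Alb (0.856), and in the mean level of PPARA targets (0.856) and lipid droplet genes (0.892). It was the lowest of 4 in the mean level of lipoprotein genes (0.851), glycolysis (0.865), gluconeogenesis and glycogen (0.895) and pericentral genes (0.89). Etomoxir liver 1 was set apart as the highest in Mki67 (0.847).

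Among the resection-only livers, liver 2 was highest in Cxcl10 (0.958) and lowest in pericentral genes (0.746), liver 4 was apart in 9130409I23Rik (0.633), and liver 6 was apart in Cdkn2d (0.601) and Fgf21 (0.711). The etomoxir effect differed between 48 h and 24 h by a log2 difference of 1.77 in Cyp3a59 and 1.89 in Cyp3a11, by the edgeR contrast of the effects.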

How the results depend on the processing

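Of 359 changed genes (195 rises, 164 falls), counts under other settings were 196 (115 and 81) with no filter on low values, 764 (371 and 393) with DESeq2, 541 (257 and 284) with DESeq2 on the 11 livers, 25 (10 and 15) with limma on those 11 and 0 (0 and 0) with edgeR on those 11. Library totals gave 105 rises, and limma on log2(FPKM + 0.1) gave 300 falls. With 1 liver left out the count ran from 138 to 1199, with 80 to 516 rises and 48 to 683 falls. The DESeq2 and limma fits on 11 livers were chosen after seeing the data. The genes whose effect differed between times numbered 2, 42 with DESeq2, and 0 to 239 with 1 liver left out.

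With the replicate number as a block (replicate block) 323 genes were called, 150 rises and 173 falls, and 205 of these calls were among the 359. Named calls it ended were Gm24776, Gm12195, Slc6a9, Cxcl10, Mup-ps13, Mup10, Plin4, Srebf1, Akr1d1, Atf4, Cdkn2c, Sult1e1, Nr1i3, Fn1, Igf1, Ccl9, Cyp2c70, Calr, Cth, Hal, Gnmt, Sdsl, Fdps, Msmo1 and, in the mitosis list, Ccnb2, Kif23, Ube2c, Cdc25c, Cenpe and Aurka, which left 1 of 7 there; the Kupffer cell list had 8 falls. The labels do not say what a shared number marks, and the livers were not taken as paired. Deviations from the group mean correlated between livers of the same number at -0.01, 0.41, 0.07 and 0.05 at 24 h. There 1 of 4 etomoxir livers correlated best with its own number. At 48 h the correlations were 0.25, 0.18, -0.10 and -0.13, and 2 of 4 did so. These values cannot tell whether a shared number marks a pair or a batch, because they differ between numbers and the labels are silent.

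With no filter on low values, 179 of the 359 calls stayed; named calls it ended were Gm24776, Gm12195, Cxcl10, Mup-ps13, Slc25a20, Akr1d1, Apoa1, Apoa5, Atf4, Calr, Cdkn2c, Fn1, Igf1, Il6ra, Ccl9, Cth, Hgd, Hal, Gnmt, Sdsl, Nr1i3, Ephx1, Fdps, Fdft1, Hsd17b7, Lss, Msmo1 and, in the mitosis list, Kif23, Cdc25c, Ube2c, Cenpe and Aurka. Library totals ended Gm12195, Cxcl10, Atf4, Fn1, Il6ra, Apoa5, Sdsl, Msmo1, Nr1i3 and Ephx1, and median-of-ratios factors ended Igf1 and Ephx1. Limma on log2(FPKM + 1) ended Cxcl10, Mup-ps13, Mup10, Plin4, Sult1e1, Sult1c2, Ccl9, Cyp2c70, Kif23, Cenpe, Fdps, Fdft1, Msmo1 and Sdsl. At a pseudocount of 0.1 it ended Cxcl10, Mup10, Plin4, Sult1e1, Fdps and Sdsl. DESeq2 kept all 354 of the 359 calls for which it gave an adjusted p.

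Of the 359 changed genes, 1 changed sign in a setting run, Mup10, at -0.41 without etomoxir liver 4 and up to 6.39 without another liver. Among genes that were not called, Pdk4 was -0.90 without etomoxir liver 2 and up to 1.52 without another liver. Cdkn1a ran from -0.77 without etomoxir liver 2 to 0.23 without another, and was -0.19 and -0.21 with limma at pseudocounts of 1 and 0.1 (-0.19 on 11 livers). Alb was 0.16 with the block, ran from -0.13 to 0.0293 with 1 liver left out and was 0.00016 with limma at either pseudocount and on 11 livers. The causes were not tested. At 14903757 to 18446372 counts per library, genes under the FPKM filter were not tested.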

Other observations

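Other genes stayed called in all 11 fits with 1 liver left out and in each other setting of 27 libraries that fitted them; those named here were chosen after their values were seen. Acmsd and Ddc were among the falls. Acmsd, which steers tryptophan breakdown away from NAD synthesis, stood between 24.3 and 50.5 (median 28.1) FPKM without etomoxir and at 19.1, 14.3, 12.7 and 16.5 with it (log2 fold change -1.08 ± 0.20, adjusted p = 0.00648). Ddc, aromatic L-amino acid decarboxylase, stood between 23.2 and 40.9 (median 37.8) against 19.8, 5.46, 15.9 and 17.5 FPKM (log2 fold change -1.24 ± 0.24, adjusted p = 0.00788).

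Of the carboxylesterases, which cleave drug and lipid esters, Ces2a and Ces1d were among the falls; the family was not counted as a list. Ces2a stood between 97.3 and 164 (median 115) FPKM without etomoxir and at 59.8, 74.4, 50.8 and 53.5 with it (log2 fold change -1.04 ± 0.17, adjusted p = 0.00282), and Ces1d between 48.9 and 178 (median 132) against 68.9, 21.4, 40.03 and 34.1 (log2 fold change -1.65 ± 0.34, adjusted p = 0.011); their relatives can share reads with them. Srd5a1, steroid 5-alpha-reductase, stood between 24.6 and 56.3 (median 36.3) against 26.8, 7.99, 11.8 and 13.5 FPKM (log2 fold change -1.42 ± 0.25, adjusted p = 0.00362) and overlaps Nsun2. Dll1, a Notch ligand, stood between 1.55 and 2.24 (median 1.94) against 0.963, 0.55, 0.897 and 1.11 FPKM (log2 fold change -1.18 ± 0.19, adjusted p = 0.0025), and Steap3, a ferrireductase, between 6.19 and 8.13 (median 6.76) against 5.3, 1.96, 4.96 and 4.03 (log2 fold change -0.77 ± 0.17, adjusted p = 0.0175). Slc17a4, a phosphate and urate transporter of the membrane, fell by a log2 fold change of -1.60 ± 0.29 (adjusted p = 0.00605).

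Among the stable rises were Flot1, a scaffold of membrane rafts (between 15.4 and 24.6, median 18.2, against 19.6, 42.9, 33.3 and 37.8 FPKM; log2 fold change 0.80 ± 0.15, adjusted p = 0.00648), Kdm4a, a histone demethylase (between 4.64 and 7.53, median 6.14, against 7.26, 11.4, 9.8 and 10.2 FPKM; log2 fold change 0.64 ± 0.13, adjusted p = 0.0103), Cobl, an actin nucleator (between 2.46 and 4.02, median 2.87, against 4.17, 5.43, 5.31 and 6.13 FPKM; log2 fold change 0.74 ± 0.14, adjusted p = 0.00635), and Pxk (between 6.06 and 6.93, median 6.66, against 8.68, 9.99, 9.75 and 8.69 FPKM; log2 fold change 0.47 ± 0.09, adjusted p = 0.00635). Their rises were small, and that of Pxk was the smallest of these 4.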
